A study of Homo sapiens with 18 samples.

Results

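The probe sets for voltage-gated and potassium channel genes are described here across a time course of sarin exposure in SH-SY5Y cells. They were chosen by name: every probe set annotated to exactly 1 gene whose symbol begins with KCN or CACN, or is SCN with a number and A or B. This gave 142 of 22215 probe sets and 97 of 11963 genes. A further 3 channel probe sets were annotated to several genes and were left out, and 30 genes had more than 1 probe set.

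SH-SY5Y is a human neuroblastoma line with noradrenergic neuronal traits, and sarin is an organophosphate nerve agent that inhibits acetylcholinesterase. Cells received sarin at 5 ppm and were collected after 3, 24 or 48 h, and untreated cells were collected at the same 3 times. Each of these 6 groups had 3 arrays, 18 in all, and each value is the signal of a probe set on 1 array. The labels name 6 flasks per group beside 3 arrays and do not say which flask gave which array, so the spread between arrays may be partly technical. The line is a single tumour-derived culture, so it stands for no tissue, and nothing else was given to either set of cells per the labels.

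Excitable cells set their membrane voltage through these channels. Voltage-gated sodium channels carry the upstroke of the action potential, and voltage-gated calcium channels turn depolarisation into calcium entry and transmitter release. Potassium channels end the spike and hold the resting potential: voltage-gated (Kv) pores repolarise, calcium-activated pores follow calcium entry, and inward rectifiers and two-pore channels set the resting conductance. Auxiliary subunits carry no current themselves and alter the traffic and gating of the pores.

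Channel transcripts are often rare, so the share of probe sets with a signal above background is given before any change. Background on each array was the 90th percentile of 27 bacterial control probe sets whose transcripts were not spiked in. A probe set was above background in a group when it exceeded that level on all 3 arrays. At 3 h 32.4% of the channel probe sets were above background in sarin-exposed cells and 32.4% in control cells, against 63.6% and 59.8% of all probe sets. At 24 h the channel shares were 38% with sarin and 36.6% in controls, against 65.8% and 64.2% of all probe sets. At 48 h they were 26.1% with sarin and 38% in controls, against 45% and 64.4% of all probe sets. In every group the channels had a lower share above background than the whole array. Of the 142, 26 were above background in all 6 groups, 68 in at least 1 group, and 38 on none of the 18 arrays; the other 36 exceeded it on some arrays without filling any group.

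**Figure D1:**
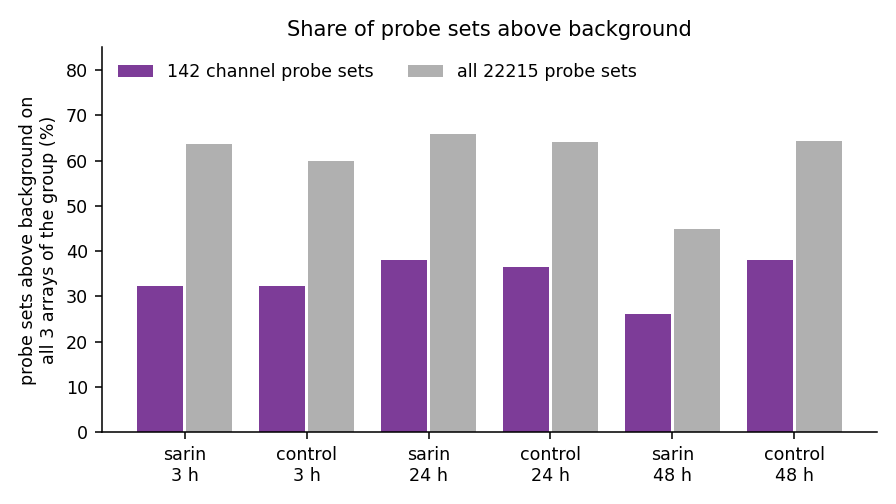
Share of probe sets above the unspiked bacterial controls on all 3 arrays of a group, in percent, for the 142 channel probe sets (purple) and for all 22215 probe sets (grey), in sarin-exposed and control cells at 3, 24 and 48 h. The channel share lies between 26.1% and 38% in every group, and both shares are lowest in the 48 h sarin group.

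The 3 arrays of cells given sarin for 48 h differed from the other 15 in several array-wide measures. Background on them was 411 to 443 in signal, against 97.0 to 183 on the others. Their 3′ to 5′ signal ratio was 2.15 to 2.30 for GAPDH and 3.68 to 4.67 for ACTB, against 0.696 to 1.17 and 0.790 to 1.64 on the others. Their median signal was 535 to 552, against 291 to 415. The part of these array differences in the 48 h results was not tested, and they are taken up beside those results. Among the other 15, the 24 h arrays were also apart by treatment. Background lay at 111.7 to 127.2 in sarin-exposed cells and at 134.7 to 182.9 in controls. Median signal lay at 315.5 to 345.7 and at 397.5 to 414.5. For GAPDH every sarin array had at least 1.046, and no control array exceeded 0.9412. The part of these differences in the 24 h results was not tested either. Of 16 noradrenergic marker genes, 15 were on the array and 14 of these were above background in 5 groups; 13 were in the 48 h sarin group, and TH (tyrosine hydroxylase) was above it in none of the 6. Of 14 substrate-adherent cell markers, all on the array, 14 were above background in both 3 h groups. At 24 h 13 were with sarin and 12 in controls, and at 48 h 9 with sarin and 13 in controls. Of 5 glial marker genes on the array, 1 or 2 were above background in any group.

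By role, the auxiliary calcium channel subunits had 11 of 17 probe sets above background in at least 1 group, and the pore-forming calcium subunits 4 of 20. Of the calcium-activated potassium channel probe sets, 7 of 11 were above background in some group, and of the Kv auxiliary subunits 9 of 13. The Kv pores had 15 of 35, the inward rectifiers 12 of 20 and the two-pore channels 4 of 10. Sodium pores had 4 of 10 and sodium beta subunits 2 of 4. Signals of different probe sets depend on the probes and are not set against each other here. Among those on all 18 arrays above background was KCNH2, the pore of the rapid delayed rectifier known as hERG, with a signal of 2983 to 5417 on its probe set 210036_s_at. CACNA2D2, an alpha-2-delta subunit of the class that binds gabapentin, ranged over 1268 to 3761. KCNMB4, the neuronal beta subunit of the large-conductance calcium-activated (BK) channel, ranged over 600 to 2957.

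Some textbook neuronal channels lacked such a signal, or had it on only part of their probe sets or arrays. CACNA1B, the N-type calcium pore, was above background on none of the arrays (a signal of 12 to 98.5), and neither were either of the CACNA1C (L-type) probe sets. CACNA1A, the P/Q-type pore, was above background on all 18 arrays with 214933_at and on at most 2 with its other probe sets. SCN9A, a sodium pore of peripheral neurons, was above background on 1 control array at 3 h and 1 at 48 h, and in no whole group.

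Sarin at 3 h changed no channel probe set past the threshold. Of all 22215 probe sets 0.0% were called at an adjusted p under 0.05 (limma), and 10 channel probe sets were under 0.05 unadjusted, as were 1941 over the whole array. The arrays of the groups did not overlap for 7 channel probe sets that were higher with sarin (4.93%, against 6.46% of all probe sets) and for 9 that were lower (6.34%, against 6.5%). The median log2 change of the channels was -0.15 and that of all probe sets -0.02.

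The smallest p at 3 h belonged to CACNA1D, a pore of L-type calcium channels. Its probe set 210108_at had 182, 72.0 and 206 with sarin, against 71.5, 10.2 and 17.6 in controls. The groups were apart only just, and 2 of the 6 arrays were above background. The log2 change was 1.88 ± 0.48 (SE, adjusted p = 0.347), and the other CACNA1D probe set, 207998_s_at, had a change of 0.04. KCNB2, a delayed rectifier pore, had 202, 218 and 62.8 with sarin, against 340, 372 and 600 in controls. All 3 sarin arrays were lower, by 1.47 ± 0.53 on the log2 scale in the fit, and this missed the threshold (adjusted p = 0.447).

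Sarin at 24 h lowered 2 channel probe sets, KCNK1 and CACNB1, and raised none. The 2 were 1.41% of the channels, against 1.75% of all probe sets called lower and 1.63% called higher, so the channel share was no larger than the whole array's. KCNK1 is the two-pore channel subunit TWIK, which contributes to resting potassium conductance. Its probe set 204679_at had 285, 293 and 377 with sarin, against 695, 553 and 544 in controls. Every sarin array was below every control array, and all 6 were above background. The log2 change was -0.88 ± 0.22 (SE, adjusted p = 0.0332), a signal of 319 ± 50.9 with sarin and 597.5 ± 84.7 in controls (SD, n = 3 arrays each). The second KCNK1 probe set, 204678_s_at, was above background on none of these 6 arrays and had a change of -0.71. A lower signal from fewer expressing cells and one from less RNA per cell cannot be told apart in these bulk samples.

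CACNB1 encodes a calcium channel beta subunit, which binds the pore inside the cell and aids its traffic to the membrane. Its probe set 206996_x_at had 124, 62.3 and 164 with sarin, against 692, 409 and 403 in controls. The groups were apart, and only 1 sarin array was above background, so the fitted log2 change of -2.00 ± 0.47 (SE, adjusted p = 0.0245) is not a measured fold. The suffix x marks probe sets that can bind other transcripts, s those shared by several transcripts and r those that missed a design rule. The other CACNB1 probe sets had changes of -0.26 (210185_at) and -0.20 (210967_x_at) that did not pass. Each call was lost when any 1 of 5 of the 6 arrays was left out, with adjusted p of 0.0664 to 0.131 for KCNK1 and 0.0538 to 0.131 for CACNB1. Without the third sarin array it held for both (0.0440 for KCNK1 and 0.0329 for CACNB1), and with quantile scaling it held for neither (0.169 for KCNK1 and 0.0698 for CACNB1). Scaled to the spiked hybridisation controls it also held for neither (0.509 for KCNK1 and 0.117 for CACNB1). Against the control arrays of the other times the KCNK1 call held (0.00289). CACNB1 then had a change of -0.967 and was not called (0.195). The mean control signal of CACNB1 206996_x_at was 501 at 24 h, beside 260 at 3 h and 212 at 48 h.

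KCNK1 is 1 of 2 genes whose promoter is shown, because its 24 h call has all 6 arrays above background and KCNJ8 was the 1 gene called lower at 48 h on each of its probe sets. The 250 bases before each RefSeq start are given on the gene's strand. Capitals mark 4 motifs searched on both strands: GGGCGG (the GC box), TATAAA (the TATA box), CCAAT (the CCAAT box) and TGACGTCA (the cAMP response element). The KCNK1 window is chr1:233613856-233614105 on the plus strand and that of KCNJ8 chr12:21774707-21774956 on the minus strand (GRCh38.p14).
KCNK1: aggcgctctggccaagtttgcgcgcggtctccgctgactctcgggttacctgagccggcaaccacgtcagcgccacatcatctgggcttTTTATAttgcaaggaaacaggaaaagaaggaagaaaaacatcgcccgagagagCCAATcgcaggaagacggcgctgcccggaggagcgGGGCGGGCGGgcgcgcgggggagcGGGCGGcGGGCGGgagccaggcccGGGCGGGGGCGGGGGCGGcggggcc
KCNJ8: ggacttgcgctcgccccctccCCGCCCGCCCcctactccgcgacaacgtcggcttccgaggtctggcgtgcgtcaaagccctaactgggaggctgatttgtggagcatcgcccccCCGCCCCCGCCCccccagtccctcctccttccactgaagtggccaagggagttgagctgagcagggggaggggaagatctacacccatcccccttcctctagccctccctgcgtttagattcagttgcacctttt
KCNK1 held 7 GC boxes, overlapping copies included, with 1 TATA box and 1 CCAAT, and KCNJ8 held 4 GC boxes and none of the others. The RefSeq table had windows for 74 of the 97 channel genes. A GC box was present in 59.5% of these, against 42.3% of 27305 genes, CCAAT in 27% against 33.0%, a TATA box in 6.76% against 11.1%, and a cAMP response element in 1.35% against 1.77%. A match describes letters in this window and is no evidence of a bound factor.

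Beyond the called pair, many channels had lower signal at 24 h without passing the test. The groups did not overlap for 36 channel probe sets that were lower with sarin (25.4%, against 21.6% of all probe sets) and for 7 that were higher (4.93%, against 10.6%). The median log2 change was -0.35 over the channels and -0.16 over all probe sets, and the unspiked bacterial controls had a median of -0.24, with 6 of 27 above 0. The channel median depended on the scaling and on the controls: it was -0.09 with quantile normalization, -0.06 with array medians (0.13 for all probe sets) and -0.01 against the control arrays of the other times. KCNAB1, the Kv beta subunit that speeds inactivation, had changes from -1.21 to -0.58 over its 4 probe sets. On 210471_s_at its signal was 426, 543 and 409 with sarin, against 857, 868 and 854 in controls. The groups were apart, and the change of -0.89 ± 0.25 just missed the threshold (adjusted p = 0.0566).

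All 11 probe sets of the calcium-activated potassium channels had estimates below 0 at 24 h, from -0.76 to -0.01 with a median of -0.43, and 0 of them were called. All 11 were also above 0 in control cells at 24 h against 3 h, a comparison that shares the 24 h controls, with a median of 0.70. KCNMA1, the BK pore, had 216, 237 and 163 with sarin, against 357, 360 and 348 in controls on 214921_at (-0.76 ± 0.31, adjusted p = 0.198). KCNMB4 had 712, 712 and 953 with sarin, against 1073, 1342 and 1218 in controls (-0.61 ± 0.21, adjusted p = 0.111). On the other KCNMA1 probe sets, 221583_s_at and 221584_s_at, the groups overlapped. On KCNMA1 214921_at and for KCNMB4 each sarin array lay below each control array. KCNH2 on 210036_s_at had 3009, 2983 and 3434 with sarin, against 3965, 4349 and 4630 in controls, again apart (-0.46 ± 0.14, adjusted p = 0.0720). Its other probe set, 205262_at, had a change of 0.17, with the groups overlapping.

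A few channels were higher with sarin at 24 h on every array and did not pass the test. KCNK3, the acid-sensitive two-pore channel TASK, had 918, 948 and 999 with sarin, against 660, 683 and 583 in controls (0.56 ± 0.28, adjusted p = 0.284). SCN3A, a sodium pore of the developing brain, had 437, 508 and 387 with sarin, against 236, 316 and 204 in controls (0.79 ± 0.59, adjusted p = 0.495). KCNJ8, the pore of ATP-sensitive potassium channels known from vascular muscle, had 1837, 1876 and 1391 with sarin, against 1151, 885 and 1067 in controls on 205304_s_at (0.71 ± 0.40, adjusted p = 0.354). On its other probe set, 205303_at, the groups overlapped and the change was 0.27.

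**Figure D2:**
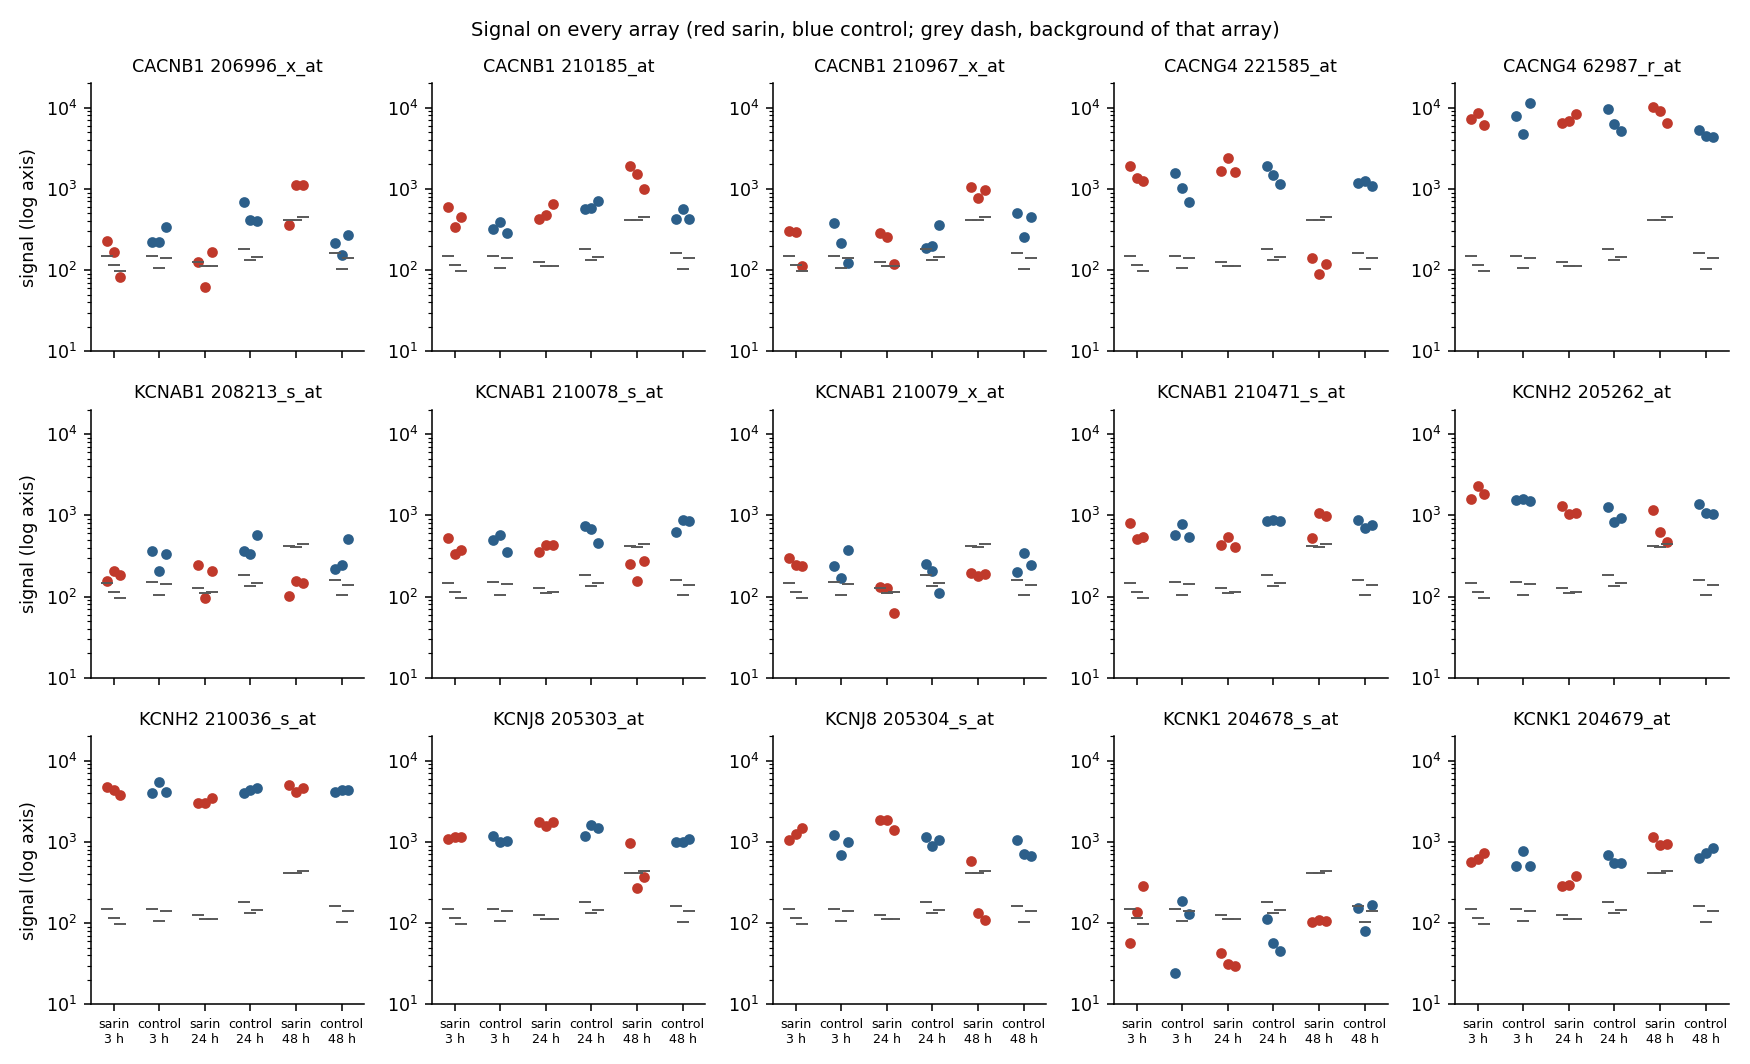
Signal on each array (log axis) of all 15 probe sets of the 6 genes called lower with sarin at 24 or 48 h, in sarin-exposed (red) and control (blue) cells at 3, 24 and 48 h, with 3 arrays a group and the background level of each array as a grey dash. KCNK1 204679_at is lower with sarin at 24 h, and CACNG4 221585_at and KCNAB1 210078_s_at lie under the background level of the 48 h sarin arrays.

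The sarin effect at 24 h did not differ from that at 3 h past the threshold for any channel, against 0.297% of all probe sets (limma). An unadjusted p under 0.05 was found for 10 of 142 channel probe sets and for 2211 of all 22215. KCNJ9, an inward rectifier subunit gated by G proteins, had the smallest p, with a change of 0.72 at 3 h and -0.88 at 24 h (difference -1.60 ± 0.48, adjusted p = 0.196). For KCNK1 204679_at the difference was -1.0 ± 0.31 (adjusted p = 0.207), so its fall at 24 h was not shown to differ from the 3 h value of 0.12.

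Some channel signals of untreated cells differed between 24 and 3 h as well. Control cells at 24 h had 4 channel probe sets called higher than control cells at 3 h (2.82%, against 2.14% of all probe sets) and 0 called lower (against 1.13%). KCNV1, a Kv subunit silent by itself that modifies other Kv pores, had 826, 576 and 480 at 24 h, against 173, 113 and 74.9 at 3 h (2.27 ± 0.48, adjusted p = 0.0157). The 24 h control arrays were all higher than the 3 h ones, and the call was lost without the first (adjusted p = 0.0721) or the second (adjusted p = 0.0519) 24 h array. CACNA2D2 had 2631, 2688 and 3558 at 24 h, against 1844, 1824 and 1751 at 3 h (0.69 ± 0.17, adjusted p = 0.0329). KCNMB2, a BK beta subunit, had 498, 420 and 430 at 24 h, against 188, 252 and 156 at 3 h (1.14 ± 0.29, adjusted p = 0.0358). The CACNA2D2 call was lost without any 1 of the 6 arrays (adjusted p of 0.0503 to 0.132), and that of KCNMB2 without any 1 of 5 of them (0.0776 to 0.119), holding without the second 3 h array (0.0270). The fourth, SCN4A, the skeletal muscle sodium pore, was above background on none of these 6 arrays. Scaled to the spiked controls, 1 channel probe set was called higher and 5 lower in this comparison, beside 21 and 3372 of all 22215. With array medians 1 was called in each direction, beside 186 higher and 1428 lower of all. The control arrays of the 2 times also differed as a whole. For ACTB no 3 h array exceeded a 3′ to 5′ ratio of 1.137, and every 24 h array had at least 1.462. Median signal was at most 339.8 at 3 h and at least 397.5 at 24 h. The part of these array differences in the calls was not tested. Between controls at 48 h and 3 h, 0 channel probe sets were called, against 0.099% of all probe sets. Under an unadjusted p of 0.05 were 8 of the 142, and 2385 of all 22215.

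At 48 h, 6 channel probe sets of 4 genes were lower with sarin than in controls: those of CACNG4, KCNJ8, KCNAB1 and KCNH2. They were 4.23% of the channels, against 21.5% of all probe sets. CACNG4 encodes a gamma subunit of the family that also serves AMPA-type glutamate receptors as an auxiliary. Its probe set 221585_at had 140, 88.5 and 119 with sarin, against 1191, 1255 and 1090 in controls. No sarin array exceeded background, and the signal was at least 2.72-fold higher in controls, where the sarin level is taken as no lower than that background. The fitted log2 change was -3.20 ± 0.27 (SE, adjusted p = 1.45e-08), and at 3 and 24 h the same probe set had changes of 0.50 and 0.33 that were not called. The second CACNG4 probe set, 62987_r_at, had 10036, 8961 and 6531 with sarin, against 5266, 4417 and 4394 in controls and was called higher (0.84 ± 0.26, adjusted p = 0.00993). CACNG4 was the 1 gene of 30 with several probe sets that was called in both directions. The higher call on 62987_r_at was lost with array medians and against the control arrays of the other times. Scaled to the spiked controls, 62987_r_at was called lower (-1.22, adjusted p = 0.00109, limma).

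KCNJ8 was lower on both of its probe sets at 48 h. On 205304_s_at it had 585, 135 and 108 with sarin, against 1040, 699 and 676 in controls (-1.84 ± 0.40, adjusted p = 0.000682). On 205303_at it had 974, 273 and 366, against 996, 996 and 1098 (-1.13 ± 0.29, adjusted p = 0.00261). The groups were apart on both, though by little for the first sarin array, which was also the only one above background. With 2 of 3 sarin arrays below background on each probe set, the fitted changes are not measured folds. Leaving out any of the 6 arrays kept both past the threshold, and without the first sarin array no sarin array was above background.

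KCNAB1 on 210078_s_at had 249, 156 and 276 with sarin at 48 h, against 629, 882 and 858 in controls. No sarin array exceeded background here either, and the signal was at least 1.82-fold higher in controls (fitted change -1.75 ± 0.28, adjusted p = 4.41e-05). Its probe set 208213_s_at had 102, 156 and 145 with sarin, against 221, 242 and 508 in controls (fitted change -1.09 ± 0.40, adjusted p = 0.0251). No sarin array was above background there, and that background exceeded 2 of the 3 control values, so no fold is given. That call was lost without the third control array (-0.73, adjusted p = 0.153) or the first sarin array (adjusted p = 0.0803). Of the other pair of KCNAB1 probe sets, 210079_x_at had a change of -0.43 and 210471_s_at one of 0.08, neither called. KCNH2 on 205262_at had 1167, 618 and 468 with sarin, against 1367, 1075 and 1040 in controls, where the groups overlapped (-0.71 ± 0.25, adjusted p = 0.0199). This call was lost without the second (adjusted p = 0.0632) or the third (adjusted p = 0.131) sarin array or the first control array (adjusted p = 0.0810), and 210036_s_at had a change of 0.10.

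At the same time 91 channel probe sets were called higher with sarin at 48 h, 64.1% of the channels against 41.7% of all probe sets. The groups did not overlap for 84 probe sets that were higher (59.2%, against 43.5%) and for 7 that were lower (4.93%, against 21.4%). Of the 91, 35 were above background on none of the 6 arrays and 29 on all 6. The median change of the 50 channel probe sets that were on none of the 6 above background was 1.29, beside 1.20 for all 3577 such probe sets, and the unspiked bacterial controls had a median of 0.98, with 23 of 27 above 0. For the 33 channel probe sets above background on all 6 arrays the median change was 1.49, beside 0.45 for all 9291 such probe sets. The median of all probe sets was 0.62.

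**Figure D3:**
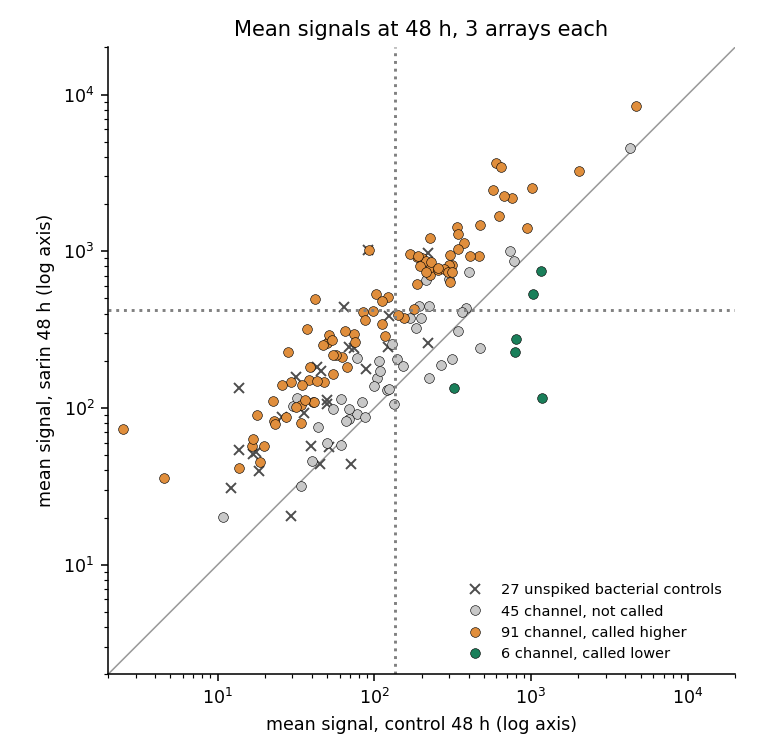
Mean signal over 3 arrays of each channel probe set in sarin-exposed cells (vertical, log axis) and in control cells (horizontal, log axis) at 48 h, with the 27 unspiked bacterial controls as crosses and the mean background levels as dotted lines. Both the channels and the bacterial controls lie mostly above the diagonal, and the 6 called lower lie below it.

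Among those above background on all 6 arrays, the BK pore and 3 of its beta subunits rose. KCNMA1 on 214921_at had 1127, 1361 and 1152 with sarin, against 297, 214 and 166 in controls (2.38 ± 0.31, adjusted p = 4.8e-06). KCNMB1, the smooth-muscle BK beta subunit, had 2536, 2516 and 1709 with sarin, against 587, 660 and 760 in controls (1.71 ± 0.23, adjusted p = 6.05e-06). KCNMB4 had 2957, 2371 and 2255 with sarin, against 1002, 986 and 1037 in controls (1.30 ± 0.21, adjusted p = 3.52e-05). In each case every sarin array was above every control array. KCNMB2 rose too (1.88), while KCNMB3 did not pass (0.05), and 9 of the 11 probe sets of calcium-activated channels were called higher.

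KCNS1, another silent Kv modifier, known from sensory neurons, had 3684, 3638 and 3620 with sarin at 48 h, against 767, 425 and 588 in controls (2.63 ± 0.25, adjusted p = 7.86e-08). KCNJ15, an inward rectifier, had 2904, 2115 and 2342 with sarin, against 698, 445 and 560 in controls (2.09 ± 0.26, adjusted p = 2.45e-06). SCN10A, a sodium pore of pain-sensing neurons, had 3397, 4114 and 2851 with sarin, against 597, 752 and 568 in controls (2.40 ± 0.35, adjusted p = 1.34e-05). These 3 were apart on every array. CACNB3, the calcium beta subunit, rose on both probe sets, to 2594, 1755 and 2177 with sarin, against 662, 871 and 744 in controls on 209530_at (1.49 ± 0.22, adjusted p = 1.46e-05) and by 0.56 on 34726_at. CACNA1A on 214933_at had 1773, 1357 and 1166 with sarin, against 363, 316 and 334 in controls (2.01 ± 0.32, adjusted p = 3.31e-05).

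Calls on probe sets below background were of like size. CACNA1B had 94.8, 98.5 and 75.6 with sarin, against 21.8, 17.0 and 14.4 in controls (1.65 ± 0.26, adjusted p = 4.09e-05), and was below background on all 6 arrays. KCNA5, a Kv pore of the heart, and KCNQ1DN, a noncoding gene that enters by its prefix, were called with changes of 1.87 and 2.42 and were likewise below background on all 6. By family, and beside 41.7% of all probe sets called higher and 21.5% lower, 25 of 35 Kv pore probe sets were called higher and 1 lower, 12 of 20 inward rectifiers higher and 2 lower, and 12 of 20 calcium pores higher. Auxiliary subunits of calcium channels had 11 of 17 higher and 1 lower, and Kv auxiliary subunits 6 of 13 higher and 2 lower. Two-pore channels had 6 of 10 higher, sodium pores 5 of 10 and sodium beta subunits 4 of 4. CACNA2D1, an alpha-2-delta subunit, had a change of 0.00 ± 0.35, and SCN9A one of -0.01 ± 0.59.

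**Figure D4:**
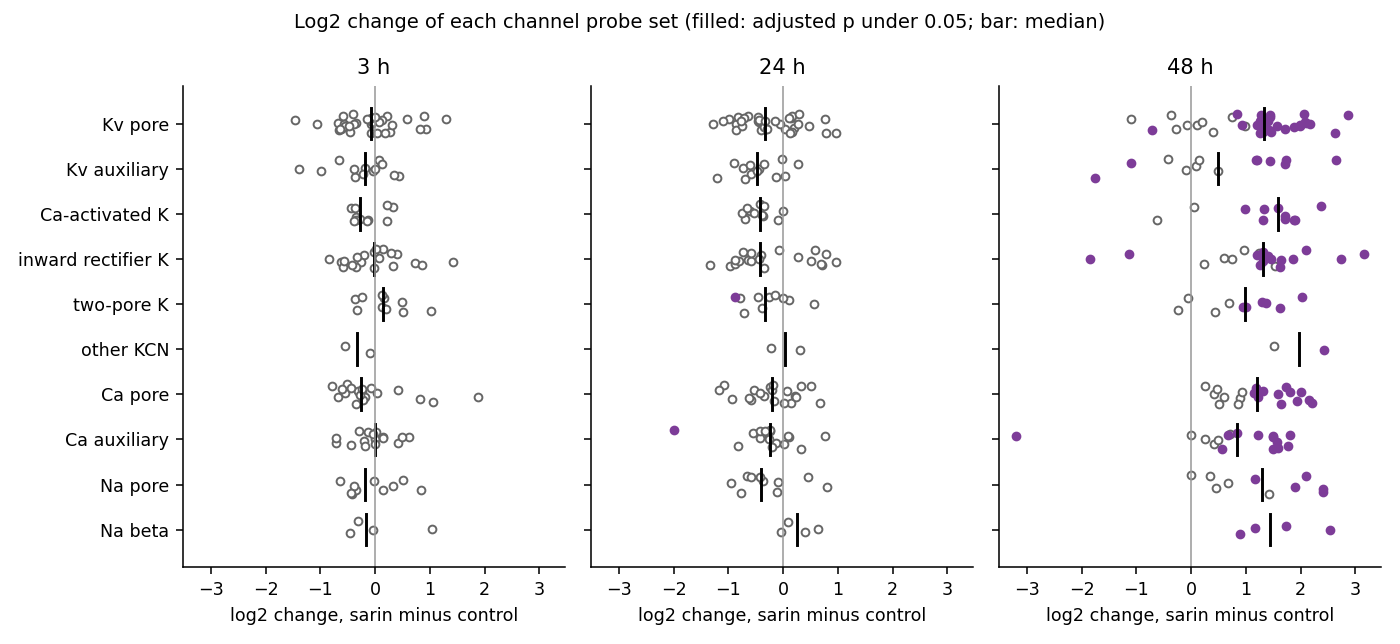
Log2 change (sarin minus control) of each of the 142 channel probe sets at 3, 24 and 48 h by family, with called probe sets filled and the median of the family as a bar. No point is filled at 3 h, 2 are at 24 h, and 91 on the right and 6 on the left are at 48 h.

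The direction of most 48 h calls depended on how the arrays were scaled. With quantile normalization 46 channel probe sets (32.4%) were called higher and 9 (6.34%) lower, against 25.2% and 25.3% of all probe sets. With each array centred on its median 50 (35.2%) were higher and 10 (7.04%) lower, against 21.7% and 30.2%. Scaled to the spiked hybridisation controls, 0 were higher and 49 (34.5%) lower, against 0.54% and 60.8%. The median of these controls themselves was 2.06 higher on the sarin arrays at 48 h. In that scaling the median of all probe sets moved to -1.43 and that of the channels to -0.77. The rises of KCNMB1, KCNMB2, KCNMB4, CACNB3 and CACNA1A named above turned to estimates below 0 there, and those of KCNMA1 214921_at, KCNS1, KCNJ15 and SCN10A stayed above 0 without passing. All 6 lower calls held in each of these 3 scalings. The channel median and that of all probe sets were 1.29 and 0.62 as deposited, 0.62 and 0.13 with quantiles, and 0.72 and 0.06 with array medians.

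**Figure D5:**
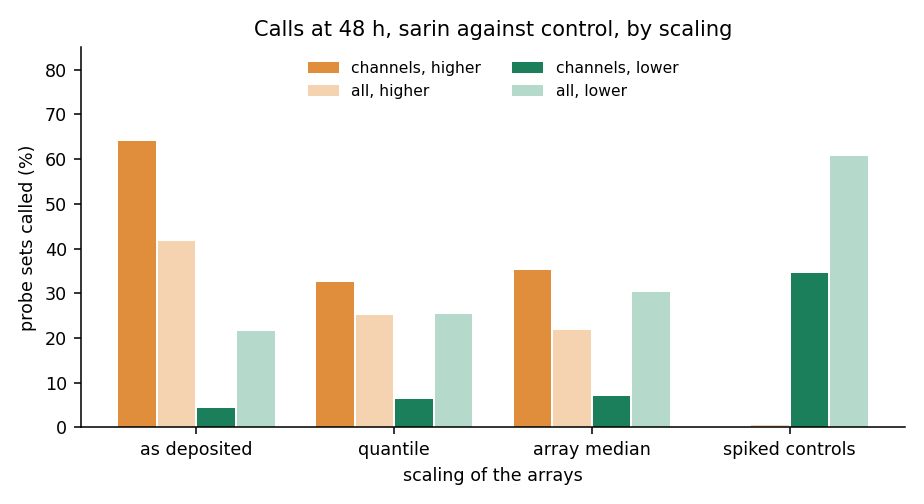
Share of probe sets called at 48 h (sarin against control) in percent, for the 142 channel probe sets (dark bars) and all 22215 (light bars), higher in orange and lower in green, with the arrays as deposited, quantile-normalized, centred on the array median or scaled to the spiked controls. The higher calls of the channels are 64.1% as deposited and 0.0% with the spiked controls.

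Genes that act with these channels were counted beside them: other ion channels, pumps, exchangers, adhesion proteins and scaffolds. Of 51 such genes 37 were on the array, each by 1 probe set. At 3 h 0 were called and at 24 h ATP2B4, a plasma membrane calcium pump, was the 1 called (-0.76 ± 0.15, adjusted p = 0.00776). At 48 h 18 were higher and 5 lower, beside 41.7% and 21.5% of all probe sets. The sodium pump subunit ATP1B1 rose by 1.78 and ATP1B3 had a change of -1.29, the chloride transporter CLCN3 -1.47 and the spectrin SPTBN1, which anchors membrane proteins, -2.54. Noradrenergic markers at 48 h had a summed signal of 63508 to 72770 on sarin arrays and 120816 to 125738 on control arrays, with 7 of 15 called lower and 1 higher. Substrate-adherent cell markers summed to 24494 to 26861 with sarin and 61687 to 82661 in controls, with 5 of 14 called in each direction. Of 5 glial markers 3 were called higher at 48 h, S100B (1.57), MBP (1.27) and SOX10 (1.60). MBP was above background on all 3 arrays of both 48 h groups, S100B on none of them and SOX10 on only 1 sarin array. The 5 glial markers summed to 1584 to 1879 with sarin and 708 to 924 in controls. At 24 h the adherent markers summed to 39826 to 41197 with sarin and 59725 to 62104 in controls, with 2 of 14 called lower, and 2 of 15 noradrenergic markers were called higher and 3 lower, beside 1.63% and 1.75% of all probe sets. The part of these marker shifts in the channel results was not tested.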

How the data were processed

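Total RNA of each culture was labelled as cRNA and hybridised to a 1-colour array, per the labels. The deposited table holds 1 signal intensity per probe set and array on a linear scale, and the submitters' processing notes name MAS5. No source used here gives the MAS5 version or its scaling target, and no detection calls were used. Every column matched 1 sample. The trimmed mean (2% at each end) of the deposited intensity was 799.9 to 800.3 on every array. Of 22283 probe sets, 68 are controls, 19065 have 1 gene symbol, 1043 several and 2107 none in the platform annotation. All 142 Entrez identifiers of the channel probe sets were found in RefSeq (GRCh38.p14), and 0 symbols changed.

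Values were analysed as log2(signal + 16), a scale on which fold changes of low probe sets are understated. Group means of 18 arrays were fitted with limma 3.58.1 in R 4.3.3 (lmFit and eBayes with a trend) over all 22215 probe sets without a level filter, two-sided, with Benjamini-Hochberg adjustment over all of them. Called means an adjusted p under 0.05. The fit was tested on simulated data. Tables and figures used Python 3.11.15. A bound set the brighter group's mean log2 value against, for each dim array, the higher of its background and the probe set's own value.

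Named are, per comparison, up to 12 called probe sets with the smallest p in each direction, or 3 where none was called; the 2 brightest of each family; and 15 fixed genes, not all of which are reported here. Further probe sets of these genes, KCNMB3 and probe sets near the threshold were added after their values were seen. The members and lists were chosen with earlier results of these data known. Alternatives were other pseudocounts, level filters, scalings, limma settings and control arrays, a replicate block and leaving out arrays. The number of arrays limits the precision.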

Additional observations from a re-analysis of the deposited data

Results flagged for a closer look

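Among the probe sets chosen to be named, those below had every sarin array on one side of its controls at one time and on the other side at another. Channel probe sets outside that choice did so too, such as KCNJ14 220776_at and KCND3 213832_at, and are not listed. Each listed probe set is given with the difference between the log2 changes, later minus earlier. None of these differences was tested, all involve the 48 h sarin arrays that stood apart in background and 3′ to 5′ ratio, and the part of those arrays in them was not tested. From 24 to 48 h the difference was 1.32 for KCNK1 204679_at (0.44 at 48 h and -0.88 at 24 h). It was 3.80 for CACNB1 206996_x_at (1.81 and -2.00), where 1 of the 3 sarin arrays at 24 h was above background. KCNJ8 205304_s_at moved the other way, by -2.55 (-1.84 and 0.71). The BK channel genes had 3.14 for KCNMA1 214921_at, 2.14 for KCNMB1, 1.91 for KCNMB4 and 2.40 for KCNMB2. The inward rectifiers had 2.67 for KCNJ15 211806_s_at, 2.52 for KCNJ9 and 1.83 for KCNJ5 211304_x_at. KCNS1 had 3.07. From 3 to 48 h the difference was 0.96 for CACNA2D2 (0.67 at 48 h and -0.29 at 3 h). The sides at 48 h rest on the scaling of the arrays. Centred on array medians, KCNK1 204679_at had -0.12 at 48 h, below 0 as at 24 h, and scaled to the spiked controls it had -1.62. With the spiked controls CACNB1 206996_x_at (-0.25), KCNJ9 (-0.43), KCNJ5 211304_x_at (-0.66), KCNMB1, KCNMB2, KCNMB4 and CACNA2D2 also had 48 h estimates below 0, while those of KCNS1, KCNMA1 214921_at and KCNJ15 211806_s_at stayed above 0 and that of KCNJ8 205304_s_at below it.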

How the results depend on the processing

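No channel probe set was called at 3 h under the alternatives run, with 1 exception. Against the control arrays of the other times 11 were (2 higher, 9 lower), beside 629 higher and 1280 lower of all 22215. At 24 h the count of 2 became 1 with quantile normalization, where neither KCNK1 nor CACNB1 was called. It became 1 with centring on the array median, which kept CACNB1 and lost KCNK1, and 0 with spike-in scaling. Of all 22215 probe sets 749 were called without these changes, and 424, 1429 and 32 with them, in that order. The channel count was 6 on the 6 arrays of that time (1603 of all) and 9 with array weights (2384 of all). It was 5 against control arrays of the other times (1345 of all), and 0 to 2 when single arrays were left out (228 to 475 of all). Each count takes in all channel probe sets called under a setting, which need not be the same ones. At 48 h 97 of 142 channel probe sets were called, beside 14041 of all 22215. In the upper 60% by level 37 of the 45 tested were called, beside 9172 of 13329. With 1 probe set per gene at that level 18 of the 23 tested were, beside 5075 of 7178. The 97 became 55 with quantile normalization (11218 of all), 60 with array medians (11524 of all) and 49 with spike-in scaling (13632 of all). The difference between 24 and 3 h gave 1 call with array weights (319 of all probe sets). Control cells at 24 h against 3 h had 4 calls, all higher (727 of all probe sets called). These became 0 with quantile normalization (273 of all) and 2 with array medians (1 higher, 1 lower, beside 186 and 1428 of all). They became 6 with spike-in scaling (1 higher, 5 lower, beside 21 and 3372 of all). With 1 probe set per gene they became 2 of 23 tested (408 of 7178), and with array weights 8 (1494 of all). With single arrays left out they were 0 to 4 (246 to 834 of all). Controls at 48 h against 3 h had 5 with spike-in scaling, beside 3304 of all. The cause of these shifts was not tested. Calls and adjusted p are limma's throughout.

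With the replicate number as a block, the counts were 0 at 3 h, 2 at 24 h and 97 at 48 h. Deviations of same-numbered arrays had a median correlation of 0.004 over 45 pairs (-0.167 to 0.255, 6 of them over 0.1). In every group but sarin at 48 h the first array had the highest background. In controls at 24 h, for example, it was 182.9, against 134.7 and 145.2. A median near 0 cannot exclude that some same-numbered arrays share a batch, and whether the numbers pair the samples was not settled.

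Scaling to the spiked controls turned 20 of 31 named 48 h calls. Their log2 changes were then -0.90 for SCN3B 204722_at, -1.18 for SCN3B 204723_at, -1.39 for CACNA2D2, -1.11 for KCNK3, -0.16 for SCN2A, -0.19 for KCNA5, -0.41 for CACNA1B and -0.75 for CACNA1C 208020_s_at. CACNA1A had -0.32 on 206399_x_at, -0.26 on 210770_s_at and -0.04 on 214933_at, CACNB3 -0.57 on 209530_at and -1.50 on 34726_at, and CACNG4 62987_r_at -1.22. KCNMB1 had -0.35, KCNMB2 -0.18, KCNMB4 -0.76, KCNMA1 -0.35 on 221583_s_at and -0.47 on 221584_s_at, and KCNJ6 -0.20. In controls at 24 h against 3 h CACNA2D2 had -0.08.

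The share of channel probe sets above background moved with the level chosen. Against the highest unspiked control it was 13.4% (sarin 3 h), 12% (control 3 h), 16.9% (sarin 24 h), 22.5% (control 24 h), 9.86% (sarin 48 h) and 21.1% (control 48 h). Against the median control, in the same order, it was 53.5%, 61.3%, 57%, 62.7%, 62.7% and 64.8%, and on at least 2 of 3 arrays 46.5%, 41.5%, 47.2%, 45.8%, 38.7% and 47.2%. Of the 142 probe sets, 38 were above background on no array, which limits what can be read from them. The added alternatives (leaving out arrays, 1 probe set per gene and no 48 h sarin arrays, for differences and control comparisons) were chosen after seeing the data.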
